A study of Mus musculus with 10 samples.

Results

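Loss of *Morc2a* from the nervous system was compared with all Cre-negative controls in neuronal nuclei of the adult mouse brain. The members are 7 of the 10 libraries of the series, chosen by genotype: the 2 libraries from *Morc2a* fl/fl *Nestin*-Cre+ mice, here called *Morc2a* Δ/Δn, and all 5 libraries from *Nestin*-Cre- mice. Control replicates 1 to 3 carry the *Mphosph8* fl/fl alleles, and control replicates 4 and 5 carry *Morc2a* fl/fl, so that only 2 of the controls share the floxed line of the knockout. The labels give C57BL/6J as the strain, brain as the tissue and adult as the age of every mouse. The other 3 libraries, from *Mphosph8* fl/fl *Nestin*-Cre+ mice (*Mphosph8* Δ/Δn), entered the fit but are described only where a difference from them was tested.

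The *Nestin* promoter is active in neural progenitors, so Cre recombines the floxed exon in neurons and in most glia before the adult stage. No control of these 7 libraries carries Cre, and the Cre transgene and the deletion cannot be told apart in this comparison. Both floxed alleles were made in embryonic stem cells, but in different cell lines. Nuclei were sorted with an antibody against NeuN, the product of *Rbfox3*, and RNA with a poly(A) tail was sequenced. In bulk RNA of this kind, fewer nuclei of a type and less RNA per nucleus cannot be told apart.

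MORC2 is an ATPase of the Microrchidia family that compacts chromatin. It acts with the HUSH complex of TASOR, periphilin and MPP8 (the product of *Mphosph8*), which binds histone H3 trimethylated at lysine 9 and brings in the methyltransferase SETDB1. HUSH is known for silencing retroelements and intronless transgenes, and the genes it restrains in neurons include clustered protocadherins (cPcdhs), surface proteins from which each neuron uses a small choice of isoforms.

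The floxed and deleted part of *Morc2a* (ENSMUSG00000034543, GRCm38 chr11:3649191-3690477, plus strand) is exon 4, an exon of 35 bases at chr11:3661829-3661863 that is coding throughout. It is printed here because it defines the knockout. In the transcript Morc2a-201 it stands, in capitals, between the last 30 bases of exon 3 and the first 30 bases of exon 5, and the line after it gives the junction that the transcript has without it.

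with exon 4: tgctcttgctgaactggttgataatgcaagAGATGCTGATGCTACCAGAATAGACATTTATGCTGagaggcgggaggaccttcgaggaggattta

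without exon 4: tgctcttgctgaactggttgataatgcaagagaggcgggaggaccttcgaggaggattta

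The length of 35 bases leaves a remainder of 2 when divided by 3, so joining exon 3 to exon 5 shifts the frame. Read from the annotated start codon, the whole transcript holds 1030 codons, and the transcript without exon 4 holds 56 codons before the first stop. Exon 4 makes up 0.545% of the gene's exonic bases, so a count over the whole gene does not show whether it was deleted, and the deposited counts are not split by exon.

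Counts on *Morc2a* were higher, not lower, in the knockout. The 5 controls stood at 163, 139, 138, 122 and 140 CPM (counts scaled to the size of the library), and the 2 *Morc2a* Δ/Δn libraries at 215 and 222 CPM. Both knockout libraries lay above every control. The log2 fold change was 0.64 (SE 0.14), which did not pass the test (edgeR quasi-likelihood test, adjusted p = 0.0916), and it was 0.74 (SE 0.17, adjusted p = 0.169) against control replicates 4 and 5 alone. *Tug1*, a long noncoding RNA gene that shares 7.5% of the exonic bases of *Morc2a*, stood at 82.8 to 107 CPM in the controls and at 82.7 and 78.2 CPM in the knockout. The gene total therefore gives no check of the labels by a loss of signal. *Mphosph8* stood at 32.2 to 48.9 CPM in the controls and at 41.4 and 37.9 CPM in the knockout, within the control range. *Rbfox3*, the marker used for sorting, was present in all 7 libraries, at 150 to 273 CPM in the controls and at 279 and 251 CPM in the knockout.

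Depth was between 6686038 and 10764555 counts in the controls and 9579220 and 9729647 counts in the knockout. The spread between libraries, a common coefficient of variation of 0.375, was fitted over all 10 libraries.

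Of 18573 genes tested, 7 were higher in *Morc2a* Δ/Δn (0.0377% of genes tested) and 4 were lower (0.0215%), 11 in all (0.0592%). The limits were an adjusted p under 0.05 and a change of more than 2-fold in edgeR, and "called" refers to edgeR wherever no other tool is named. DESeq2 called 6 of these 11 genes and gave no adjusted p for the other 5, *Oscar*, *AA465934*, *Gm43176*, *Pcdhb6* and *Pcdhb15*. The higher genes were *Pask*, *3222401L13Rik*, *Pcdhb6*, *Gm47283*, *AA465934*, *Pcdhb15* and *Rnf113a2*. The lower genes were *Gm43176*, *Oscar*, *Bccip* and *Ubb*. For 10 of these 11 genes the 2 knockout libraries lay on one side of all 5 controls, and *Pask* was the exception. The genes were called on these same libraries, so this describes them and adds no separate support. Over all genes tested, both knockout libraries lay above every control for 7.59% and below for 7.8%. Without a minimum fold change 16 genes passed (0.0861%), and the 5 added ones were all lower. An unadjusted p below 0.05 was reached by 803 higher genes (4.32%) and 1188 lower genes (6.4%).

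**Figure D1:**
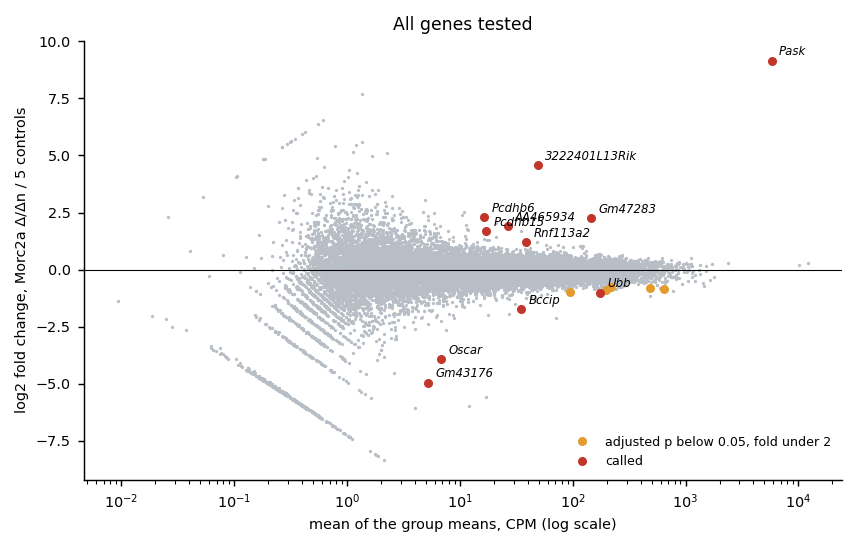
Log2 fold change of Morc2a Δ/Δn over the 5 controls against the mean of the group means in CPM (log axis), one grey point for each gene tested that had a count in either group. Red points are the 11 called genes and orange points are the 5 genes that passed the adjusted p with a fold change under 2, all of which lie below 0.

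**Figure D2:**
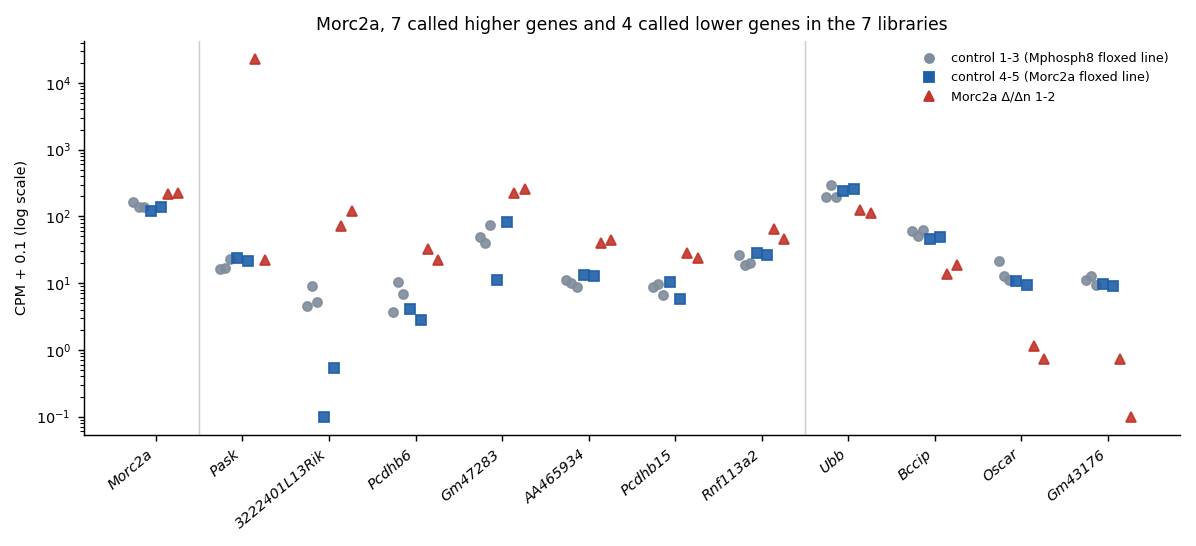
CPM plus 0.1 (log axis) in each of the 7 libraries for Morc2a, the 7 genes called higher and the 4 genes called lower. Grey circles are control replicates 1 to 3, blue squares control replicates 4 and 5, and red triangles the 2 Morc2a Δ/Δn libraries, which lie beyond every control for all called genes but Pask. The genes were called on these same libraries, so this largely follows from the choice.

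*Pask* encodes a PAS domain protein kinase that links nutrient state to metabolism. Its counts in control replicates 1 to 5 were 130, 174, 243, 241 and 146, against 216863 in *Morc2a* Δ/Δn replicate 1 and 212 in replicate 2. The value of replicate 1 made up 2.26% of all counts of that library and was the most abundant gene in it, while replicate 2 lay within the control range. The call (log2 fold change 9.15, SE 1.12, adjusted p = 0.00222) thus rests on 1 library, and without it the log2 fold change was 0.11 (adjusted p = 0.975). *Ppp1r7*, whose exons overlap those of *Pask* (ENSMUSG00000026274, chr1:93308770-93343482), was within the control range in both libraries, at 76.8 and 77.6 CPM against 60.4 to 84.4 CPM.

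The long noncoding RNA gene *3222401L13Rik* (ENSMUSG00000073590), which has 1 exon and lies on chromosome 18 among the cPcdhs, rose in both knockout libraries. It stood at 4.51, 9.06 and 5.05 CPM in control replicates 1 to 3, at 0 and 0.445 CPM in replicates 4 and 5, and at 71.1 and 119 CPM in *Morc2a* Δ/Δn. Both knockout libraries exceeded the highest control. The log2 fold change was 4.59 (SE 0.57, adjusted p = 0.00222). The controls of the *Morc2a* floxed line held 0 and 3 counts, and the gene also differed between the control lines (log2 difference -5.02, adjusted p = 0.00574). Against them the fitted log2 fold change of 8.94 (adjusted p = 9.25e-07) depends on the prior count and is no bound.

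*Rnf113a2*, an intronless gene for a RING finger protein (ENSMUSG00000098134, chr12:84417196-84418578), stood at 25.9, 18.4, 19.6, 27.8 and 25.95 CPM in the controls and at 63.6 and 45.1 CPM in the knockout. Both knockout libraries were above all controls (log2 fold change 1.21, SE 0.22, adjusted p = 0.0434). The call was lost without *Morc2a* Δ/Δn replicate 1 (adjusted p = 0.22) or 2 (0.0979), without control replicates 1, 2 or 3 (0.0714, 0.101 and 0.132) and in the 7 libraries alone (0.119). Its paralog *Rnf113a1* stood at 11.5 to 24.4 CPM in the controls and at 19.9 and 21.7 CPM in the knockout, without passing the test. Reads that fit both copies could be split between them by the counting.

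*AA465934* (ENSMUSG00000093483, chr11:83291699-83294632), a transcript without an annotated protein, stood at 8.79 to 13.3 CPM in the 5 controls and at 39.7 and 44.0 CPM in the knockout. The knockout libraries did not overlap the controls (log2 fold change 1.91, SE 0.26, adjusted p = 0.00481), and the call was lost without *Morc2a* Δ/Δn replicate 2 (adjusted p = 0.144). *Gm47283* (ENSMUSG00000096768), on the Y chromosome, stood at 48.9, 39.4, 73.9, 11.1 and 81.0 CPM in the controls and at 227 and 255 CPM in the knockout. Its rise (log2 fold change 2.25, SE 0.39, adjusted p = 0.0403) stood beside a control spread of 11.1 to 81.0 CPM, the widest in fold terms among the called genes with a count in every control. It was not called without *Morc2a* Δ/Δn replicate 1 (adjusted p = 0.0682) or 2 (0.19), or without control replicate 1 (0.0714) or 2 (0.0935).

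Among the lower genes, *Oscar* (ENSMUSG00000054594, chr7:3609813-3616157) encodes an immunoglobulin-like receptor known from osteoclasts. It stood at 21.03, 12.6, 11.03, 10.7 and 9.2 CPM in the controls and at 1.06 and 0.619 CPM in the knockout. The knockout mean was 0.0652 times the control mean, with no overlap (log2 fold change -3.92, SE 0.50, adjusted p = 0.00222). The call was lost by limma-voom (adjusted p = 0.103) and without *Morc2a* Δ/Δn replicate 2 (0.0979).

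*Bccip* (ENSMUSG00000030983, chr7:133709333-133721145), which encodes a partner of BRCA2 and of the cell cycle inhibitor p21, stood at 61.3, 51.5, 62.6, 45.2 and 48.3 CPM in the controls. The knockout libraries held 13.6 and 18.6 CPM, about 0.299 times the control mean (log2 fold change -1.74, SE 0.22, adjusted p = 0.00222). *Bccip* shares 10% of its exonic bases with *Dhx32*, an RNA helicase gene, which stood at 55.9 to 67.5 CPM in the controls and at 41.4 and 51.5 CPM in the knockout and did not pass the test (adjusted p = 0.46). *Gm43176* (ENSMUSG00000106648, chr5:52139585-52142573), a locus whose transcript awaits experimental evidence in the annotation, stood at 8.9 to 12.6 CPM in the controls and at 0.638 and 0 CPM in the knockout. Both knockout libraries fell below all controls (log2 fold change -4.96, SE 0.75, adjusted p = 0.0116). The 2 knockout libraries held 6 and 0 counts, and the call was lost by limma-voom (adjusted p = 0.128) and without replicate 2 (0.0979).

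*Ubb* (ENSMUSG00000019505, chr11:62551171-62553213), one of the genes that encode polyubiquitin, stood at 192, 295, 196, 242 and 253 CPM in the controls and at 123 and 111 CPM in the knockout. The knockout mean was 0.496 times the control mean (log2 fold change -1.01, SE 0.17, adjusted p = 0.0294), close to the fold limit of 2. Its adjusted p was 0.0833 and 0.25 without *Morc2a* Δ/Δn replicates 1 and 2 and 0.0639 without control replicate 2, and without control replicate 5 it missed the fold limit.

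Control replicates 4 and 5, of the same floxed line, gave a second reading of each called gene. All 11 called genes kept their direction against these 2 controls alone. A fit with the 4 genotypes as groups called 7 higher genes (0.0377%) and 3 lower genes (0.0162%), of which 5 were called in both comparisons: *3222401L13Rik*, *Pcdhb6*, *Oscar*, *Bccip* and *Gm43176*. The other 5 were *Pcdhga12*, *Pcdhb14*, *Pcdhgc4*, *Pcdhb8* and *Gm40893*, all higher and named after their values were seen. *Gm40893* turned direction with the controls: it had a log2 fold change of -0.89 against all controls and 4.82 against the same-line controls, in which it was almost absent, at 0.198 and 0 CPM. Both comparisons use the same knockout libraries and share control replicates 4 and 5.

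The remaining 6 genes were not called against the same-line controls. *AA465934* had an adjusted p of 0.0961 there and *Ubb* of 0.0537. *Pask* had 0.076, *Gm47283* 0.169, *Pcdhb15* 0.201 and *Rnf113a2* 0.242. Their log2 fold changes against the same-line controls were 1.69, -1.08, 8.98, 2.41, 1.70 and 1.01 in this order. Over all genes tested, 9.08% reached an unadjusted p below 0.05 against the same-line controls, and 50% had a log2 fold change above 0, beside 48.7% against all controls. Between the control lines themselves 24 genes were called, 10 higher (0.0538%) and 14 lower (0.0754%) in the *Morc2a* line, with *3222401L13Rik* and *Gm40893* (log2 difference -6.43, adjusted p = 0.00281) among the lower.

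The cPcdh cluster holds 58 genes in 3 arrays, *Pcdha*, *Pcdhb* and *Pcdhg*, of which 49 passed the filter on low counts. Only *Pcdhb6* and *Pcdhb15* were called by edgeR. DESeq2 called *Pcdhb8* and *Pcdhga12*, and limma-voom *Pcdhb6*, *Pcdhb15* and *Pcdhb8*. The median log2 fold change of the 49 was 0.83, beside -0.01 over all genes tested, with 37 above 0 and 12 below. Since the filter can keep a gene for its counts in the knockout, these values only describe the members tested. Counted over all 58 members, both knockout libraries lay above every control for 19 genes and below every control for 1, *Pcdhac2*. Among all genes tested, 7.59% lay above and 7.8% below.

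With the controls alone deciding which genes were high enough, at a control mean of 5 CPM or more, 21 cPcdhs remained. Of these, 11 lay above every control in both knockout libraries (52.4%) and 1 below (4.76%), against 8.32% and 9.36% of all 12469 genes at that level. Their median log2 fold change was 0.90.

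The *Pcdhb* genes are single-exon or nearly single-exon genes, each with its own promoter. *Pcdhb6* (ENSMUSG00000051678) stood at 3.63, 10.4, 6.73, 4.05 and 2.67 CPM in the controls and at 32.6 and 22.0 CPM in the knockout. Both knockout libraries were above every control (log2 fold change 2.29, SE 0.36, adjusted p = 0.0174), also against control replicates 4 and 5 (3.00, SE 0.43, adjusted p = 0.0104). The call was lost in the 7 libraries alone (adjusted p = 0.116), with the replicate block (0.0555), without control replicate 1 (0.0502) and without *Morc2a* Δ/Δn replicate 1 (0.111) or 2 (0.0618). *Pcdhb15* (ENSMUSG00000047033) stood at 5.78 to 10.2 CPM in the controls and at 28.5 and 23.7 CPM in the knockout (log2 fold change 1.68, SE 0.31, adjusted p = 0.0438). Its call held in 5 of 13 alternatives that gave an adjusted p, and was lost without *Morc2a* Δ/Δn replicate 1 (adjusted p = 0.156) or 2 (0.177) and without control replicates 1, 2 or 3 (0.0722, 0.0902 and 0.133).

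*Pcdhb8* stood at 12.1, 4.97, 13.8, 7.31 and 2.37 CPM in the controls and at 36.6 and 31.5 CPM in the knockout. It missed the threshold against all controls (log2 fold change 2.05, adjusted p = 0.0528) and passed it against the same-line controls (2.76, adjusted p = 0.0303). *Pcdhb14* stood at 11.8, 14.4 and 19.4 CPM in control replicates 1 to 3 and at 5.93 and 4.30 CPM in replicates 4 and 5, against 27.3 and 33.7 CPM in the knockout. Its adjusted p was 0.181 against all controls and 0.0104 against the same-line controls. *Pcdhb17*, at 32.6 to 51.1 CPM in the controls and 85.4 and 70.0 CPM in the knockout, had an adjusted p of 0.0528.

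In the *Pcdhg* array, *Pcdhga12* stood at 60.2, 51.8 and 64.8 CPM in control replicates 1 to 3 and at 29.3 and 29.96 CPM in replicates 4 and 5, against 120 and 82.6 CPM in the knockout. *Pcdhgc4*, a C-type isoform, stood at 97.5, 66.4 and 80.6 CPM, at 42.6 and 47.6 CPM, and at 157 and 108 CPM in the same order. Both genes lay above every control in both knockout libraries, and for both the same-line controls were the lowest. Against all controls the log2 fold changes of *Pcdhga12* and *Pcdhgc4* were 1.10 (adjusted p = 0.129) and 0.98 (adjusted p = 0.15). Against the same-line controls they were 1.77 (adjusted p = 0.00636) and 1.55 (adjusted p = 0.0106). Overlap with exons of other genes, *Pcdhg* genes among them, covers 38.1% of the exons of *Pcdhga12* and 37.9% of those of *Pcdhgc4*, and how the counting treated reads there is not known. *Pcdhga6* and *Pcdhga4* were low, at most 4.11 and 2.07 CPM in any control, and stood at 8.40 and 8.36 CPM and at 5.64 and 4.44 CPM in the knockout without passing the test.

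Summed over the array, *Pcdhb* stood at 209 to 284 CPM in the controls and at 450.5 and 424.1 CPM in the knockout, which is 199% and 187% of the control median. *Pcdhg* stood at 87.9 to 184 CPM in the controls and at 326 and 229 CPM in the knockout. Most of the *Pcdhg* sum came from *Pcdhga12* and *Pcdhgc4* in every library, so it mainly reflects these genes. *Pcdha* stood at 9.78 to 16.6 CPM in the controls and at 13.4 and 13.7 CPM in the knockout, within the control range. In that array *Pcdhac2*, the only member with a control mean of 5 CPM or more, stood at 2.73 to 6.82 CPM in the controls and at 2.66 and 0.722 CPM in the knockout, without passing the test (adjusted p = 0.653).

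**Figure D3:**
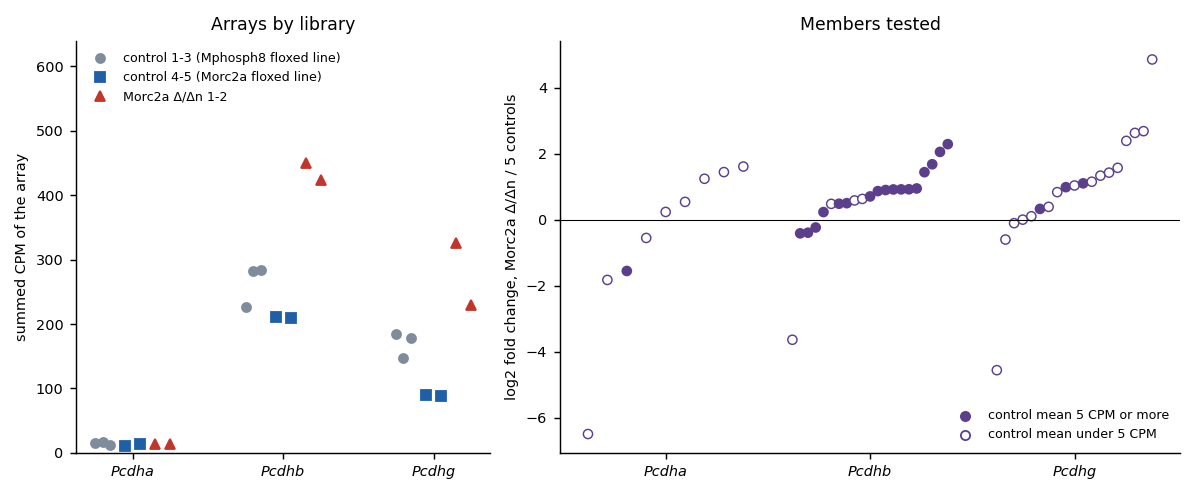
Left, summed CPM of the Pcdha, Pcdhb and Pcdhg arrays in each of the 7 libraries, with grey circles for control replicates 1 to 3, blue squares for control replicates 4 and 5 and red triangles for Morc2a Δ/Δn. Right, log2 fold change over the 5 controls of the 49 members tested, ordered by value within each array, filled where the control mean was 5 CPM or more. In the sums both knockout libraries lie above every control for Pcdhb and Pcdhg, and within the control range for Pcdha. Most of the Pcdhg sum came from Pcdhga12 and Pcdhgc4.

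The protocadherins outside the cluster were not among the higher genes. Of 12 delta protocadherins 11 were tested and none was called, with a median log2 fold change of -0.32. Both knockout libraries lay below every control for 3 (27.3%, beside 7.8% of all genes tested). One of these, *Pcdh20*, stood at 28.8 to 46.3 CPM in the controls and at 22.2 and 20.01 CPM in the knockout (adjusted p = 0.183).

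Other gene classes connected with HUSH were read in the same way. Of 324 intronless protein-coding genes outside the protocadherins, only *Rnf113a2* was called, with a median log2 fold change of -0.18 for the list. Both knockout libraries lay above every control for 13 (4.01%) and below for 35 (10.8%), beside 7.59% and 7.8% of all genes tested. The members with the smallest p after *Rnf113a2* were *Klhl9*, *Irf2bp1* and *Cstf2t*, which were all lower in both knockout libraries than in any control. *Irf2bp1*, which encodes a transcriptional corepressor, stood at 23.3 to 37.7 CPM in the controls and at 14.4 and 9.49 CPM in the knockout (log2 fold change -1.31, adjusted p = 0.123). *Klhl9*, which encodes an adaptor of a ubiquitin ligase, stood at 63.6 to 80.3 CPM in the controls and at 51.3 and 38.99 CPM in the knockout. *Cstf2t*, which encodes an RNA cleavage stimulation factor, stood at 65.5 to 92.1 CPM in the controls and at 51.8 and 40.7 CPM in the knockout.

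Of 358 *Zfp* genes, most of which encode zinc finger proteins, none was called, and the median was 0.11 (-0.00047 without *Morc2a* Δ/Δn replicate 2). Of these, 38 lay above every control (10.6%) and 12 below (3.35%), beside 7.59% and 7.8% of all genes tested. *Zfp346* stood at 76.9 to 98.9 CPM in the controls and at 119 and 130 CPM in the knockout, and *Zfp706* at 113 to 148 CPM and at 83.8 and 92.3 CPM. Of 11 *Skint* genes none was tested, with a summed level of 0 to 0.148 CPM in the controls and of 0.213 and 0 CPM in the knockout. Of 11 germline genes tested none was called, 5 were above 0 and 6 below, and the median was -0.08. *Tdrd1*, a gene of the piRNA pathway, stood at 1.12 to 3.66 CPM in the controls and at 0.957 and 0.619 CPM in the knockout (adjusted p = 0.733). *Brdt*, a bromodomain gene of the testis, stood at 23.4 to 43.1 CPM in the controls and at 46.6 and 44.9 CPM in the knockout (adjusted p = 0.412). Of 437 processed pseudogenes tested none was called and the median was -0.07, which was -0.45 without *Morc2a* Δ/Δn replicate 1.

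Genes for HUSH itself and its partners showed small differences. Of 14 members 12 were tested and none was called. *Morc2a*, *Fam208a* and *Trim28* lay above every control in both knockout libraries, 25% of the 12 beside 7.59% of all genes tested. The first of these is the deleted gene itself. The median log2 fold change of the 12 was 0.05, with 8 above 0 and 4 below. *Fam208a*, which encodes TASOR, stood at 55.8 to 69.9 CPM in the controls and at 80.2 and 94.7 CPM in the knockout (log2 fold change 0.45, SE 0.17, adjusted p = 0.342). *Trim28*, the corepressor KAP1, stood at 290 to 341 CPM in the controls and at 380 and 427 CPM in the knockout (log2 fold change 0.34, adjusted p = 0.384). *Setdb1*, *Atf7ip*, which encodes a partner of SETDB1, and the *Morc2a* paralog *Morc2b* had log2 fold changes of 0.14, -0.37 and -0.15, with adjusted p of 0.826, 0.468 and 0.902. Of 22 genes for histone methyltransferases and DNA methylation none was called, and *Dnmt3a* stood at 292 to 354 CPM in the controls and at 385 and 375 CPM in the knockout.

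Of the 16 genes with an adjusted p below 0.05, 9 were lower, and 5 of these changed by less than 2-fold. *Acot7*, a brain acyl-CoA thioesterase, stood at 253, 311, 256, 294 and 271 CPM in the controls and at 158 and 164 CPM in the knockout (log2 fold change -0.78, SE 0.13, adjusted p = 0.0266). *Hsp90ab1*, the constitutive cytosolic HSP90 chaperone, stood at 713 to 957 CPM in the controls and at 535 and 396 CPM in the knockout (log2 fold change -0.83, SE 0.14, adjusted p = 0.0294). *Mdh1*, cytosolic malate dehydrogenase, stood at 547 to 750 CPM in the controls and at 392 and 321 CPM in the knockout (log2 fold change -0.79, SE 0.14, adjusted p = 0.0434). In each case both knockout libraries were below all controls. The same was true of *Ndfip1*, an adaptor of NEDD4 ubiquitin ligases, at 237 to 279 CPM against 158 and 117 CPM. It was also true of the noncoding *2900097C17Rik*, at 107 to 154 CPM against 61.8 and 65.6 CPM (adjusted p = 0.0434 for both).

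Lists for energy metabolism and protein turnover were put together after these values were seen, and their members are given as a description. Among all genes tested, 7.8% lay below every control in both knockout libraries and 7.59% above. Of 27 genes of glycolysis and the citrate cycle tested, 15 lay below every control in both knockout libraries (55.6%) and none above, with a median log2 fold change of -0.35. None of these 27 was called. *Tpi1*, triosephosphate isomerase, stood at 279 to 400 CPM in the controls and at 208 and 166 CPM in the knockout (adjusted p = 0.063). *Mdh2*, the mitochondrial malate dehydrogenase, stood at 275 to 369 CPM in the controls and at 204 and 182 CPM in the knockout (adjusted p = 0.106).

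Of 81 genes of oxidative phosphorylation tested none was called, and 73 had a log2 fold change below 0. Both knockout libraries lay below every control for 24 (29.6%, beside 7.8% of all genes tested). The median was -0.29, and -0.52 and -0.16 without *Morc2a* Δ/Δn replicates 1 and 2. The complex I gene *Ndufa10*, *Ndufa4*, first assigned to complex I and later to complex IV, and the ATP synthase gene *Atp5f1* were among them. *Ndufa4* stood at 161 to 239 CPM in the controls and at 148 and 86.9 CPM in the knockout (adjusted p = 0.123). *Ndufa10* stood at 188 to 223 CPM in the controls and at 159 and 139 CPM in the knockout. *Atp5f1* stood at 98.8 to 160 CPM in the controls and at 78.7 and 81.2 CPM in the knockout. The summed level of the list was 83.8% of the control median in replicate 1 and 69.4% in replicate 2.

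Of 19 genes of the vacuolar ATPase, the proton pump that acidifies lysosomes and synaptic vesicles, 13 lay below every control (68.4%) and 1 above. The shares over all genes tested were 7.8% and 7.59%. The median of the list was -0.39, and none of its members was called by edgeR. *Atp6v1e1* stood at 284, 401, 293, 303 and 279 CPM in the controls and at 191 and 159 CPM in the knockout (log2 fold change -0.83, SE 0.16, adjusted p = 0.0528). *Atp6v1a*, its catalytic subunit, stood at 264 to 349 CPM in the controls and at 205 and 204 CPM in the knockout (adjusted p = 0.0916). *Atp6v0c*, the proteolipid of the membrane rotor, stood at 28.6 to 52.6 CPM in the controls and at 23.8 and 13.4 CPM in the knockout (adjusted p = 0.163), and it was called lower by DESeq2 (log2 fold change -1.07, adjusted p = 0.00929).

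Of 36 proteasome genes 11 lay below every control (30.6%), and of 18 cytosolic chaperone genes 7 did (38.9%), beside 7.8% of all genes tested. The medians were -0.23 and -0.34, and none was called. *Psmd1*, a subunit of the regulatory particle, stood at 108 to 137 CPM in the controls and at 80.7 and 84.3 CPM in the knockout. The stress-inducible *Hsp90aa1* stood at 52.8 to 74.8 CPM in the controls and at 39.98 and 26.6 CPM in the knockout, and *Hspa8* at 128 to 215 CPM and at 101 and 79.0 CPM (adjusted p = 0.123 for both).

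The log2 fold changes moved with the length of the gene. Protein-coding genes with up to 1500 exonic bases had a median of -0.17, with 12.1% below every control and 4% above. Those with over 6000 exonic bases had a median of 0.03, with 6.64% below and 8.98% above. The shares also differed with the level. Of protein-coding genes with a control mean over 100 CPM, 13.1% lay below every control and 10.2% above. At 1 to 10 CPM, 5.81% lay below and 5.16% above. Of 82 cytosolic ribosomal protein genes, which are short, none was called. Of these, 6 lay below and 6 above every control (7.32% each, near the 7.8% and 7.59% of all genes tested). The median was -0.13, and -0.26 and -0.02 without *Morc2a* Δ/Δn replicates 1 and 2. *Rps3*, a protein of the small subunit, stood at 196 to 296 CPM in the controls and at 169 and 128 CPM in the knockout. The parts of gene length and of level in the values of the lists were not tested.

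**Figure D4:**
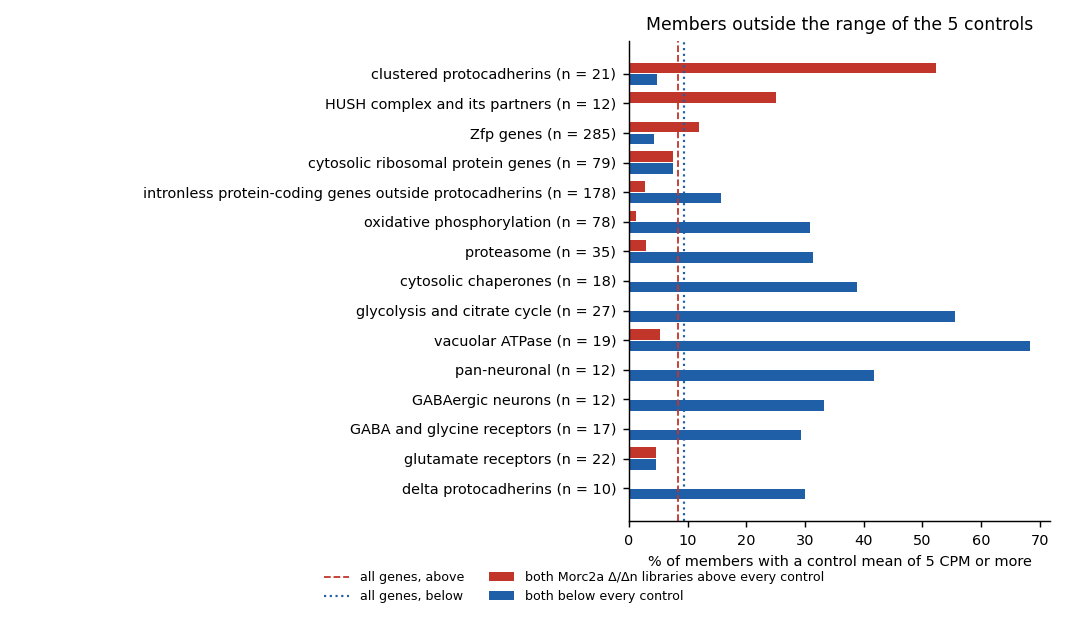
Share of the members of each list, in % of those with a control mean of 5 CPM or more (n in brackets), for which both Morc2a Δ/Δn libraries lay above every control (red) or below every control (blue). Dashed and dotted lines give the shares over all 12469 genes at that level, 8.32% above and 9.36% below. The clustered protocadherins reach 52.4% above and the vacuolar ATPase genes 68.4% below. Of protein-coding genes with a control mean over 100 CPM, 13.1% lay below.

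Neuronal and synaptic genes were mostly lower without being called. Of 12 pan-neuronal markers, 9 had a log2 fold change below 0, with a median of -0.31. Of the 12, 5 lay below every control (41.7%, beside 7.8% of all genes tested). *Snap25*, a SNARE protein of vesicle release, stood at 1803 to 1993 CPM in the controls and at 1374 and 1379 CPM in the knockout (log2 fold change -0.47, SE 0.09, adjusted p = 0.0528). *Syn1*, which tethers vesicles, stood at 172 to 210 CPM in the controls and at 141 and 115 CPM in the knockout, and *Tubb3*, a neuronal tubulin, at 315 to 396 CPM and at 288 and 183 CPM. *Rbfox3* (log2 fold change 0.19) did not share this direction. It was among the 3 of the 12 markers above 0, the highest of which was at 0.33. Of 21 genes of vesicle release 3 lay below every control (14.3%, beside 7.8% of all genes tested). Their median of -0.27 was -0.41 without *Morc2a* Δ/Δn replicate 1 and -0.10 without replicate 2.

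All 12 markers of GABAergic neurons had a log2 fold change below 0 and 4 lay below every control (33.3%, beside 7.8% of all genes tested). Their median was -0.40, and -0.65 and -0.22 without *Morc2a* Δ/Δn replicates 1 and 2. Against the same-line controls 3 of the 12 were above 0. The neuropeptide genes *Sst* and *Npy* stood at 406 to 536 CPM and at 165 to 216 CPM in the controls, against 386 and 252 CPM and 159 and 99.0 CPM in the knockout. Of 19 genes for GABA and glycine receptors 18 were below 0 and the median was -0.23. Of the 19, 5 lay below every control (26.3%, beside 7.8% of all genes tested). *Gabbr2*, a subunit of the metabotropic receptor, stood at 154 to 216 CPM in the controls and at 138 and 123 CPM in the knockout (adjusted p = 0.17).

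Glutamate receptor genes were even, with 11 of 22 above 0 and a median of -0.02. *Grik5*, a kainate receptor subunit, stood at 170 to 246 CPM in the controls and at 274 and 344 CPM in the knockout (adjusted p = 0.267). *Grm4*, a presynaptic metabotropic receptor, stood at 26.7 to 51.5 CPM in the controls and at 22.0 and 15.4 CPM in the knockout (edgeR adjusted p = 0.161), and was called lower by DESeq2 (adjusted p = 0.00912). Markers of forebrain glutamatergic neurons had a median of -0.30, those of striatal neurons -0.20 and those of the midbrain and hindbrain -0.40. These medians depended on single libraries. The forebrain median was -0.12 and the striatal median -0.45 without *Morc2a* Δ/Δn replicate 1. Without replicate 2 the striatal median was -0.03 and that of the midbrain and hindbrain -0.86, which was -0.16 without control replicate 4. In the last of these lists *Slc17a6*, the vesicular glutamate transporter of the brainstem and thalamus, stood at 94.2 to 116 CPM in the controls and at 67.2 and 60.3 CPM in the knockout (log2 fold change -0.75, SE 0.15, adjusted p = 0.0652).

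Cerebellar granule neuron markers differed among the controls themselves. The summed level of their list was 249, 328, 331, 856 and 289 CPM in control replicates 1 to 5, and 250.5 and 247 CPM in the knockout. *Gabra6*, the GABA receptor subunit of granule neurons, stood at 2.25, 3.12, 5.70, 103 and 4.75 CPM in the controls and at 0.744 and 0 CPM in the knockout. *Cbln3*, a cerebellin of the same cells, stood at 3.88, 6.43, 5.33, 149 and 1.04 CPM in the controls and at 0.638 and 0.722 CPM in the knockout. Control replicate 4 stood far above the other controls for both genes, and both knockout libraries lay below every control. Neither gene passed the edgeR test (adjusted p = 0.263 and 0.288), while DESeq2 called *Cbln3* lower (adjusted p = 0.0307). All 11 members tested had a log2 fold change below 0, with a median of -0.83 that was -0.54 without control replicate 4. The part of cerebellar nuclei in the other results was not tested. Without control replicate 4, 13 genes were called higher and 7 lower, and all 11 called genes were among them.

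**Figure D5:**
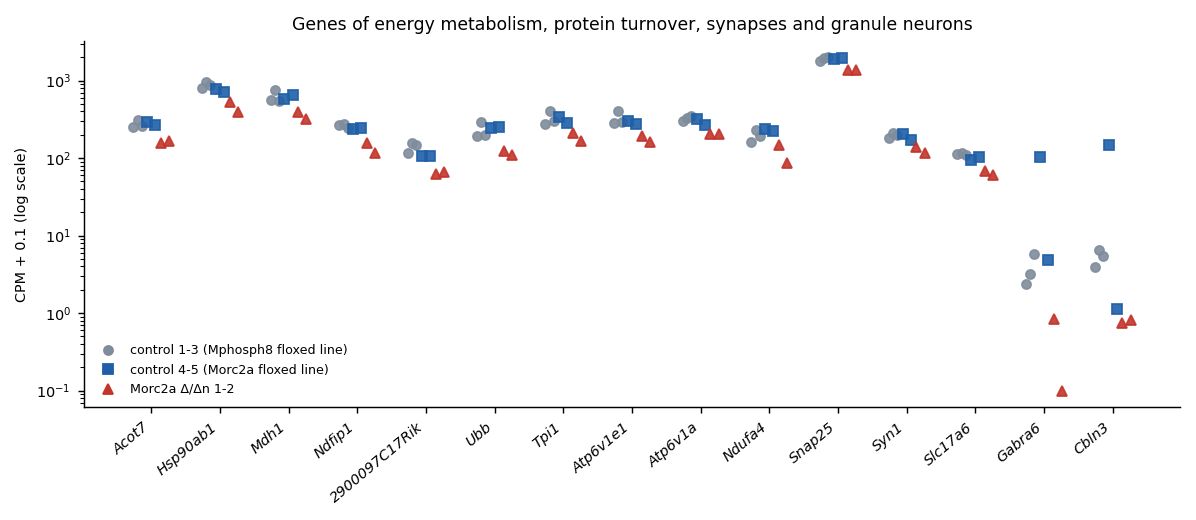
CPM plus 0.1 (log axis) in each of the 7 libraries for genes of energy metabolism, protein turnover, synapses and cerebellar granule neurons. Grey circles are control replicates 1 to 3, blue squares control replicates 4 and 5, and red triangles Morc2a Δ/Δn. The 15 genes were picked with their values in view as lower genes, so that the knockout libraries lie below every control for all of them follows from the choice. The margin is small for most. Members of the same lists that were not lower are not shown. Control replicate 4 stands apart for Gabra6 (103 CPM) and Cbln3 (149 CPM).

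Markers of cells that a NeuN sort should remove were present in all groups, and none was called. The summed astrocyte markers stood at 1044 to 1279 CPM in the controls and at 1111 and 945 CPM in the knockout, and those of oligodendrocytes at 788 to 1023 CPM and at 705 and 585 CPM. *Mbp*, the myelin basic protein gene, stood at 447 to 609 CPM in the controls and at 381 and 302 CPM in the knockout (adjusted p = 0.197). Microglial markers summed to 58.2 to 113 CPM in the controls and to 73.7 and 62.9 CPM in the knockout, and oligodendrocyte precursor markers to 78.4 to 103 CPM and to 88.8 and 72.4 CPM. Endothelial and pericyte markers summed to 27.7 to 70.1 CPM in the controls and to 29.9 and 21.5 CPM in the knockout. One of them, *Itm2a*, stood at 12.3 to 24.2 CPM in the controls and at 5.64 and 4.85 CPM in the knockout (adjusted p = 0.123).

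All 9 choroid plexus and ependyma markers tested had a log2 fold change below 0. Their median was -0.96 against all controls and -0.42 against the same-line controls, where again none was above 0. *Ttr*, transthyretin, the main secreted protein of the choroid plexus, stood at 127, 139, 110, 78.0 and 103 CPM in the controls and at 64.6 and 53.8 CPM in the knockout (log2 fold change -0.91, adjusted p = 0.152). Growth hormone, *Gh*, a pituitary product, stood at 0 to 0.297 CPM in the controls and at 3.72 and 2.68 CPM in the knockout. In the controls it held at most 2 counts, so its log2 fold change of 4.98 (adjusted p = 0.196) depends on the prior count.

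Genes induced by neuronal activity depended on which controls were used. Of 20 immediate early genes 19 had a log2 fold change below 0 against all controls, with a median of -0.47, while against control replicates 4 and 5 alone 13 were above 0 and the median was 0.10. *Egr1*, a zinc finger transcription factor, stood at 220, 252 and 286 CPM in control replicates 1 to 3, at 154 and 151 CPM in replicates 4 and 5, and at 138 and 108 CPM in the knockout. None of the 20 was called in either comparison. The median of the interferon response genes also depended on the controls, with a value of -0.65 against all controls and 0.02 against the same-line controls over 16 genes.

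Mutations in human *MORC2* cause an axonal form of Charcot-Marie-Tooth neuropathy. Of 15 genes of such neuropathies tested none was called, and 4 lay below every control (26.7%, beside 7.8% of all genes tested). Their median depended on the controls, at -0.20 against all controls and -0.006 against the same-line controls. Of the 15, 4 were above 0 in the first comparison and 7 in the second. *Rab7*, a GTPase of late endosomes, stood at 16.8 to 28.8 CPM in the controls and at 13.4 and 15.3 CPM in the knockout, and *Nefl*, the light neurofilament, at 135 to 173 CPM and at 116 and 114 CPM (adjusted p = 0.309 and 0.314). Of 22 imprinted genes tested, 4 lay above and 4 below every control (18.2% each, beside 7.59% and 7.8% of all genes tested). *Snrpn*, a paternally expressed splicing protein gene, stood at 142 to 183 CPM in the controls and at 121 and 78.0 CPM in the knockout (adjusted p = 0.127). Of 32 genes tested within 500 kb of *Morc2a*, 3 lay above and 3 below every control (9.38% each, near the shares of all genes tested) and none was called.

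Whether loss of *Morc2a* and loss of *Mphosph8* changed different genes was tested as an interaction, in which the effect of either deletion was taken relative to Cre-negative mice with the same floxed allele. No gene was called by edgeR, with 1476 genes at an unadjusted p below 0.05 (7.95%). The genes with the smallest p were *Gabra6*, *Cfp*, *Cbln3* and *Dlk2*, each at an adjusted p of 0.133. The called genes *Bccip*, *3222401L13Rik* and *Oscar* had the same adjusted p, with interaction values of -1.65, 4.42 and -3.20 on the log2 scale. The value of *3222401L13Rik* uses the 0 and 3 counts of control replicates 4 and 5, so it depends on the prior count. *Cfp*, which encodes the complement protein properdin, stood at 169, 167, 145, 104 and 96.5 CPM in control replicates 1 to 5 and at 167 and 186 CPM in *Morc2a* Δ/Δn. *Dlk2*, a Notch ligand-like gene, stood at 167, 147, 138, 110 and 82.9 CPM in the controls and at 190 and 222 CPM in *Morc2a* Δ/Δn. For both, the same-line controls were the lowest of these 7 libraries. In *Mphosph8* Δ/Δn, *Cfp* stood at 128, 128 and 126 CPM and *Dlk2* at 92.3, 141 and 115 CPM. *Gabra6* stood there at 49.3, 74.3 and 4.65 CPM and *Cbln3* at 68.2, 92.3 and 7.65 CPM. Both granule neuron genes thus varied widely within that group, as they did among the controls, where replicate 4 held 103 and 149 CPM. The part of cerebellar nuclei in their interaction values was not tested.

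Compared directly, 6 genes were higher (0.0323%) and 6 lower (0.0323%) in *Morc2a* Δ/Δn than in *Mphosph8* Δ/Δn. The knockouts also differ in floxed line, which this contrast does not remove. *Pask*, *AA465934*, *Bccip*, *Oscar* and *Gm43176* were among them, and the 3 *Mphosph8* Δ/Δn libraries stood within or next to the control range for these genes. *Oscar* stood at 10.7, 13.7 and 10.6 CPM in *Mphosph8* Δ/Δn (log2 difference -3.78, adjusted p = 0.0101), and *Bccip* at 58.0, 62.3 and 69.1 CPM (-1.97, adjusted p = 0.00357). *AA465934* stood at 7.54, 12.4 and 11.2 CPM (2.01, adjusted p = 0.022).

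The other 7 genes of the direct comparison were not called against the controls by edgeR and are named after their values were seen. DESeq2 called *Shisa7* and *Lsamp* higher than in the controls (adjusted p = 0.000296 and 0.00209). *Shisa7*, an auxiliary subunit of ionotropic receptors, *Lama3*, a laminin chain, *Rdh13*, a retinol dehydrogenase, and *Lsamp*, a neuronal adhesion protein, were higher. *Slc17a6*, *Vsnl1*, a calcium sensor, and *Ndn*, an imprinted gene of neuronal survival, were lower. *Shisa7* stood at 87.4, 55.0, 69.2, 95.0 and 90.9 CPM in the controls and at 162 and 161 CPM in *Morc2a* Δ/Δn (log2 fold change over controls 1.03, adjusted p = 0.0528). *Lsamp* stood at 57.3, 69.2, 57.5, 109 and 106 CPM in the controls and at 165 and 165 CPM in the knockout (adjusted p = 0.0811), with the controls of the *Morc2a* line the highest of the 5. *Lama3* stood at 8.38 to 32.9 CPM in the controls and at 49.9 and 56.6 CPM in the knockout, and *Rdh13* at 136 to 215 CPM and at 226 and 262 CPM. *Vsnl1* stood at 104 to 136 CPM in the controls and at 80.5 and 61.0 CPM in the knockout, and *Ndn*, at 304 to 396 CPM and at 335 and 202 CPM, overlapped the controls.

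The 3 *Mphosph8* Δ/Δn libraries also stood above every control for 4 of the called genes, with the same controls in both comparisons. They did so for 2.31% of all genes tested. *3222401L13Rik* stood at 178, 137 and 117 CPM there, *Pcdhb6* at 49.8, 46.8 and 41.0 CPM, *Pcdhb15* at 38.1, 17.8 and 24.5 CPM and *Rnf113a2* at 56.2, 43.8 and 49.5 CPM. Their direct log2 differences between the knockouts were -0.60, -0.75, -0.04 and 0.12, and none passed the test, with adjusted p of 0.744, 0.47, 0.98 and 0.892.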

How the data were processed

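RNA with a poly(A) tail from NeuN+ nuclei was sequenced in single 50-base reads. The authors trimmed reads with Trim Galore 0.5.0, removed reads on abundant sequences with Bowtie2 2.3.4.1, aligned the rest to GRCm38 with STAR, and used featureCounts (Subread 1.6.2) with the annotation of Ensembl release 94. The files as deposited hold raw counts for 54532 genes, to which the authors applied no normalization. How the counting treated strand and overlapping genes is not given in the sources used here.

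Symbols and positions came from GENCODE M21 (GRCm38), in which 37 gene identifiers were not found. In R 4.3.3 with edgeR 4.0.16, genes were filtered by filterByExpr over 3 groups, libraries were scaled by TMM, and all 10 libraries entered 1 quasi-likelihood fit from which *Morc2a* Δ/Δn was contrasted with all controls. A fit of 4 genotypes gave the same-line, control-line and interaction contrasts. Adjustment of p-values followed Benjamini and Hochberg over 18573 genes, and calls needed an adjusted p under 0.05 with a change of more than 2-fold. SE were the log2 fold change divided by the root of the F statistic. CPM are counts per TMM-scaled library total, and 3 counts equalled 0.280 to 0.445 CPM. The scripts were tested on simulated data.

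Depth was 6686038 to 10764555 counts per library. Replicates were taken as separate mice, as the study's methods give biological replicates. Otherwise p-values would measure only the spread between libraries. No 2 libraries of a group agreed within sampling noise. Precision was limited by 2 knockout libraries.

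The members and gene lists were chosen with earlier results of these data known. Genes named are *Morc2a*, *Mphosph8* and *Rbfox3*, all called genes, the 3 with the smallest p called only against same-line controls, up to 4 members of each list with the smallest p, and the 4 with the smallest p in the interaction. The choice of others was made with their values in view, for overlap with a called gene, for an adjusted p below 0.05 or for a place in the 5 lists of energy metabolism and protein turnover, which were added then. The pituitary list was also written after *Gh* counts had been seen. Alternatives were other size factors, no filter beyond 1 count, same-line controls, the 7 libraries alone, a replicate block, DESeq2 1.42.0, limma-voom (limma 3.58.1), no minimum fold change and each library left out. Some members of the lists are not reported here.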

Additional observations from a re-analysis of the deposited data

Results flagged for a closer look

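Among the 5 controls, 1 library stood far from the other 4 for 6 of 86 values examined, which are the named genes and the total count, by the ratio of the gap to the whole range against Dixon's critical value of 0.71. Chance gives about 1 in 20. Control replicate 4 held 3 of them, at 103.3 CPM of *Gabra6* (next control 5.70 CPM), 149.5 CPM of *Cbln3* (next 6.43 CPM) and 78.25 CPM of *Calb2*, a calcium-binding protein of granule neurons and interneurons (next 31.4 CPM). *Calb2* stood at 19.8 and 11.7 CPM in *Morc2a* Δ/Δn. Control replicate 1 was highest for *Oscar*, at 21.03 CPM (next 12.6 CPM), and lowest for *Klhl9*, at 63.58 CPM (next 78.2 CPM). Control replicate 2 was highest for *Atp6v1e1*, at 400.9 CPM (next 303 CPM).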

How the results depend on the processing

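The counts of called genes depended on the settings. Of 7 higher and 4 lower genes called, other size factors gave 7 and 4, and the same-line controls 7 and 3. No filter on low counts gave 40 and 58 (30885 genes tested), the 7 libraries alone 3 and 3, DESeq2 11 and 16, limma-voom 15 and 1, and no minimum fold change 7 and 9. The replicate block gave 27 and 19, with 3 residual degrees of freedom. Residuals of same-numbered libraries correlated at -0.0275 to 0.0428 and those of other pairs at -0.0552 to 0.0406. The residuals of the 2 *Morc2a* Δ/Δn libraries mirror each other by construction, and the controls that share their numbers are of the other floxed line. For these libraries the check could not decide whether replicate numbers pair them. Leaving out 1 library gave 2 to 14 higher and 1 to 17 lower genes. Without *Morc2a* Δ/Δn replicate 1 it was 3 and 17, without replicate 2 it was 2 and 1, and of the 11 called genes 5 and 3 were still called. Where 1 knockout library remained, it was assumed to vary like the other groups. Without control replicates 1, 2, 3, 4 and 5, 7, 7, 9, 11 and 10 of the 11 genes were still called, with 3, 4, 6, 13 and 14 higher and 4, 3, 4, 7 and 12 lower genes. The causes were not tested. *3222401L13Rik* and *Bccip* passed in all 14 alternatives. *Pask* gave an adjusted p of 0.975 without replicate 1 and 0.398 by limma-voom.

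*Morc2a* stayed above 0 in all alternatives and did not pass the fold limit in any, with an adjusted p of 0.00202 by DESeq2, 0.0102 without the filter and 0.0604 by limma-voom, and log2 fold changes of 0.50 with the replicate block to 0.74 with same-line controls. For differences between the knockouts, the interaction called 0 genes, 0 with other size factors, and 12 by the direct contrast. Leaving out 1 library gave 0 to 7, with 7 without control replicate 5, 4 and 2 without *Morc2a* Δ/Δn replicates 1 and 2, and 3 without *Mphosph8* Δ/Δn replicate 3.

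Some directions changed. *Mphosph8* had a log2 fold change of -0.19 with same-line controls, and -0.031 (without *Morc2a* Δ/Δn replicate 1) to 0.13 (without control replicate 4) with 1 library left out. *Gm40893* had -0.89 against all controls, 4.82 (adjusted p = 0.026) with same-line controls and 0.60 by limma-voom. It stood at 10.3, 12.4 and 10.7 CPM in control replicates 1 to 3, at 0.198 and 0 CPM in replicates 4 and 5, and at 5.00 and 2.27 CPM in the knockout. *Ppp1r7* had -0.010 with the replicate block and -0.032 to 0.091 with 1 library left out (lowest without control replicate 5). *Setdb1* had -0.023 with the block and -0.12 to 0.36 with 1 library left out, lowest without *Morc2a* Δ/Δn replicate 2. *Morc2b* had -0.64 to 0.21, highest without *Morc2a* Δ/Δn replicate 1. Of 1159 values of single genes under alternatives, 1053 kept their direction and their side of the threshold. The median of the clustered protocadherins was 0.68 to 1.29, that of the vacuolar ATPase -0.55 to -0.34 and that of oxidative phosphorylation -0.52 to -0.16 over size factors, same-line controls and each library left out. The median of the *Pcdha* genes was -0.91 without *Morc2a* Δ/Δn replicate 2 and 1.13 with same-line controls. Libraries from 2 knockout mice limit what small differences could be called.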
